A study of Mus musculus with 2 samples.

Results

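The genes described here build and steer the vesicles that carry secretory cargo between the endoplasmic reticulum (ER) and the Golgi apparatus. They form 6 classes, namely 3 CREB3-family transcription factors, 10 genes of the COPII coat, 5 organisers of ER exit sites, 6 cargo receptors, 10 genes of the COPI coat, and 8 Golgi tethers and SNAREs. The 42 genes were chosen by function, with earlier results of these data known. Each was read from every probe set that the platform annotation assigns to that gene alone. They were 42 of the 18193 genes named on the arrays, and their 87 probe sets were among 34945 annotated to a single gene.

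Gene expression was measured in *Tric-b*-knockout mouse embryos (C57BL/6J, 129Sv) at E17.5. *Tric-b* encodes TRIC-B, a cation channel of the ER membrane, and both specimens lack it. One Affymetrix mouse genome array was hybridized with RNA of the columnar and hypertrophic part of the femoral cartilage plate, and another with RNA of the part enriched with round chondrocytes. Each RNA was mixed from 3 preparations, so the mixture holds no spread between animals and no difference below has a replicate check, a test or a p-value. Wild-type arrays were not analysed here, and the comparison is between zones of one genotype. The number of arrays, 1 per zone, limits the precision.

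COPII-coated vesicles bud from ER exit sites and carry newly made proteins forward, whereas COPI-coated vesicles return escaped ER proteins and cargo receptors from the Golgi. Chondrocytes secrete large amounts of collagen, and fibrillar procollagen is too long for a standard COPII vesicle, so its export needs additional organisers at the exit site. BBF2H7, the product of *Creb3l2*, is a membrane-bound transcription factor that is cleaved on its way through the Golgi and activates *Sec23a*, a COPII gene, in cartilage. Loss of *Creb3l2* in mice disturbs secretion of the cartilage matrix, and mutation of human *SEC23A* causes a craniofacial skeletal disorder.

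The promoters of these genes share a short sequence more often than promoters at large. Windows from 250 bases before to 50 bases after the transcription start were taken from RefSeq (GRCm38.p6) and were given for 37 of the 42 genes, in 43 windows, and *Creb3l1*, *Lman1*, *Kdelr2*, *Arcn1* and *Golgb1* had none here. The letters TGACGT, the core of the sites that CREB and ATF proteins bind, were searched on both strands. They were found in 18 of the 37 genes (48.6%), against 2263 of 27025 genes with a window (8.37%) and 12.9% of the 10303 genes that also had a value on these arrays. The longer form TGACGTGG, which contains TGACGT and is known from genes of the unfolded protein response, was found in 8 genes (21.6%), against 193 genes in all (0.714%) and 1.16% of those with a value. The stretches around these 8 matches are printed because they carry this difference. Capitals mark the match, which reads CCACGTCA where it lies on the opposite strand, and each stretch runs 5′ to 3′ along the gene's own strand.
*Sec23a*, chr12:59011988-59012057, minus strand, match 6 bases after the start: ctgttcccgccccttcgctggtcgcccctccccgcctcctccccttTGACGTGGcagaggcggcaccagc
*Sec24d*, chr3:123267424-123267523, plus strand, match 26 bases before the start: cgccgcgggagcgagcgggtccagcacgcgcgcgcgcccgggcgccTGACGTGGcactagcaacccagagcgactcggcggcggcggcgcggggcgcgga
*Sec16b*, chr1:157506706-157506805, plus strand, match 44 bases before the start: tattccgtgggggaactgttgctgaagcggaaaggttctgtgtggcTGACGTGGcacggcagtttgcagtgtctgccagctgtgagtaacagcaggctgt
*Kdelr3*, chr15:79516332-79516431, plus strand, match 30 bases before the start: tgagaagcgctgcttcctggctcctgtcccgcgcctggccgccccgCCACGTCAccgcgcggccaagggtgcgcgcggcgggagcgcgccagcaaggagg
*Copb1*, chr7:114254655-114254754, minus strand, match 28 bases before the start: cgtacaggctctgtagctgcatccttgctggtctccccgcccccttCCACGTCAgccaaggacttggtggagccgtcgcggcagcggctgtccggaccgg
*Copb2*, chr9:98563678-98563760, plus strand, match 7 bases before the start: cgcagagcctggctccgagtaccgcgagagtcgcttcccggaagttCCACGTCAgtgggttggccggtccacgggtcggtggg
*Arf1*, chr11:59228193-59228292, minus strand, match 84 bases before the start: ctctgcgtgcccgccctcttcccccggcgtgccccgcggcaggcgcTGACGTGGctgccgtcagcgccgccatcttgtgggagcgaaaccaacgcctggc
*Stx5a*, chr19:8741387-8741453, plus strand, match 9 bases after the start: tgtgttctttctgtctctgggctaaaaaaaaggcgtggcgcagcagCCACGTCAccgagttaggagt

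The 8 matches were spread over the classes. They lay in 2 of 10 COPII genes, 3 of 9 COPI genes with a window, 1 of 5 organisers, 1 of 4 receptors, 1 of 7 Golgi genes and 0 of 2 CREB3-family genes. *Arf1* has windows for more than 1 start site, and the same match lies 84 bases before one start and 21 bases after another. *Stx5a* held a further match 39 bases after its start. The palindrome TGACGTCA was found in *Cope* alone (2.70% of the 37 genes, against 2.03% of all genes). The ER stress response element, searched as CCAAT followed after 9 bases by CCACG, was in 0 of the 37 genes and in 0.137% of all genes. A match is a description of the letters and not a measured binding site, and the shares were not tested against each other. No share was taken among genes of similar signal on these arrays.

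**Figure D1:**
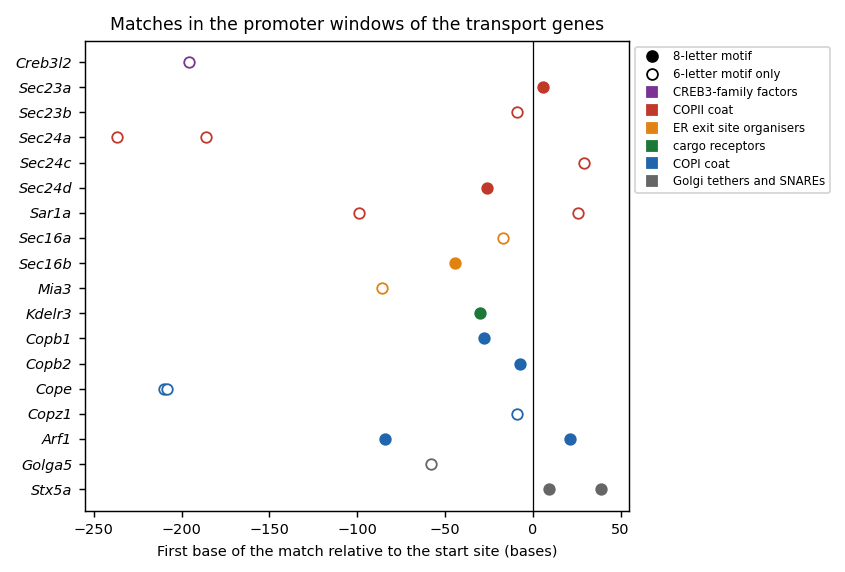
Position of the first base of each match relative to the transcription start (bases) in the 18 transport genes whose promoter window holds TGACGT, with filled circles for TGACGTGG, open circles for TGACGT alone, and colours for the gene classes. The TGACGTGG matches of *Sec24d*, *Sec16b*, *Kdelr3*, *Copb1* and *Copb2* lie within 44 bases before the start, and that of *Arf1* appears at 84 bases before and at 21 bases after its start sites.

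The signals below are array intensities on a linear scale, and every difference is on the log2 scale, columnar/hypertrophic minus round, so that 1 is a 2-fold difference. Signals under 65.9, the 40th percentile of both arrays together, were set to that floor, and where a gene had several probe sets the brightest on average stood for it. Signals of different genes come from different probes and are not set against each other. All 42 genes lay above the floor in both arrays. Spread could be measured only among probe sets that read the same gene, with a pooled SD in the log2 difference of 0.34 over 5446 genes, and of 0.28 over the 23 transport genes with more than 1 compared probe set. That spread holds no variation between animals.

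Marker genes went with the zone labels, but they were chosen with earlier results of these data known and are no independent check. Of 6 columnar, prehypertrophic or hypertrophic markers 6 were at least 2-fold higher in columnar/hypertrophic cartilage, and 4 of 5 measured round or articular markers were at least 2-fold higher in round cartilage. The 7 cartilage markers, which are matrix genes and *Sox9*, differed by a median of 0.01, and 0 of them passed 2-fold. Genes listed as markers of other cells also moved with the zones. Of 9 perichondrium, tendon and fibroblast genes 7 were at least 2-fold higher in round cartilage (summed signal 47650.0 in columnar/hypertrophic cartilage and 116606 in round cartilage). Of 3 measured osteoblast genes 2 were at least 2-fold higher in columnar/hypertrophic cartilage (1996 and 158), the direction of the hypertrophic markers. Of 3 compared skeletal muscle genes 2 were past 2-fold in the same direction (839 and 219.9), and 0 erythroid, myeloid or endothelial genes were. In mixed tissue, fewer cells of a type and less RNA per cell cannot be told apart.

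Nearly all transport genes had similar signals in both zones, and most leaned slightly to columnar/hypertrophic cartilage. Their median difference was 0.19, with 32 genes positive and 10 negative, whereas the median over all 12761 compared genes was -0.04 and 46.8% of those were positive. At 2-fold, 0 transport genes were higher in columnar/hypertrophic cartilage, where 4.28% of all genes passed, and 2, *Creb3l1* and *Sec16b*, were higher in round cartilage, where 6.25% of all genes passed. At 1.5-fold, *Kdelr3* alone was higher in columnar/hypertrophic cartilage (10.4% of all genes), a count that was 0 after quantile or lowess normalization and 2 with probe sets free of a cross-hybridization suffix, and the same 2 genes were higher in round cartilage (15.3% of all genes). The count of 2 of 42 at 2-fold is near the share of all genes, and the other counts lie below theirs.

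**Figure D2:**
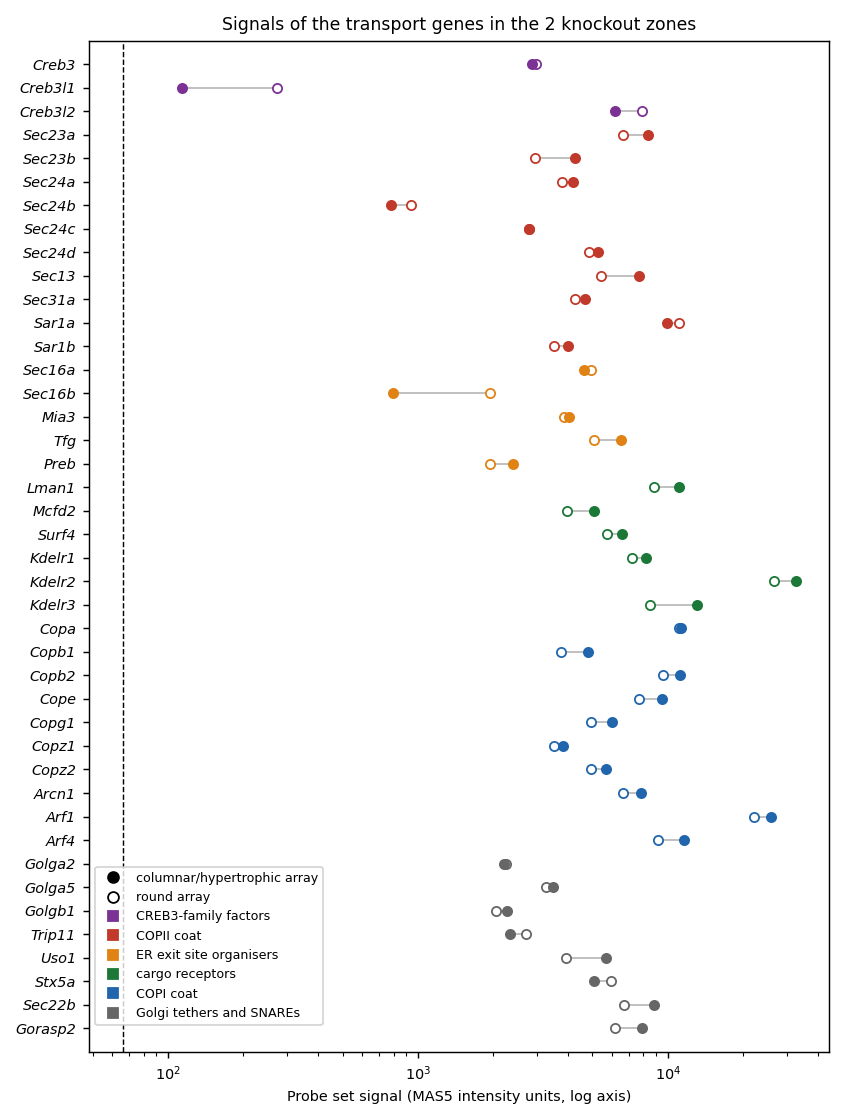
Signals of the 42 transport genes (intensity units, log axis) in columnar/hypertrophic cartilage (filled circles) and round cartilage (open circles) from the knockout embryos, 1 per zone, with colours for the classes and a dashed line at the floor of 65.9. Most pairs lie close together, with the filled circle to the right in 32 genes, and the widest gaps are those of *Creb3l1* and *Sec16b*, with the open circle to the right.

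In the CREB3 family, 0 of 3 factors were positive on the probe set used, although *Creb3* and *Creb3l2* had probe sets of both signs. *Creb3l1* encodes OASIS, which drives type I collagen expression in osteoblasts. Its single probe set had a signal of 114 in columnar/hypertrophic cartilage and 274 in round cartilage, a difference of -1.27, or 2.41-fold higher in round cartilage. Both signals are low. A floor at the 60th percentile, 207, lay above the columnar/hypertrophic signal, so the difference of -0.41 in that setting was a bound. The *Creb3l1* difference went in the direction of most perichondrium, tendon and fibroblast genes. Of these, *Col1a1* had signals of 342 and 1583 in columnar/hypertrophic and round cartilage. Of 5 measured round or articular markers 4 were also at least 2-fold higher in round cartilage, such as *Ucma* at 6943 and 23261. The measured osteoblast genes went the opposite way, with *Sp7* at 1342 and 141, and so did the 6 columnar, prehypertrophic or hypertrophic markers. The part of any of these cells in the *Creb3l1* difference was not tested.

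*Creb3l2*, the chondrocyte factor described above, had signals of 6177 in columnar/hypertrophic cartilage and 7907 in round cartilage (-0.36). The second probe set for the gene went the other way, with 3056 and 2404 (0.35), so that its mean over the probe sets was -0.0050 and no direction can be given for it. *Creb3*, which encodes Luman, had 2858 in columnar/hypertrophic cartilage and 2969 in round cartilage (-0.06), and its 4 probe sets ranged from -0.10 to 0.41. The proteases that cleave these factors in the Golgi, encoded by *Mbtps1* and *Mbtps2*, had signals of 4233 and 4556, and of 1417 and 1289, in columnar/hypertrophic and round cartilage (-0.11 and 0.14), and the probe sets of *Mbtps1* ranged from -0.11 to 0.20. Neither protease gene differed by more than the spread between probe sets.

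In the COPII coat, 8 of 10 genes were positive as deposited, against 46.8% of all compared genes and 57.7% of those with both signals at least 1000. The count was 6 after quantile normalization or after lowess centring on signal, where *Sec24c* and *Sec24d* became negative (-0.07 and -0.02 after quantile normalization). The class median was 0.14 as deposited, with a range of -0.26 to 0.53 and an SD between genes of 0.26, and quantile normalization lowered it to 0.03 and lowess centring to 0.02. Both genes for SEC23, the inner coat protein that activates the hydrolysis of GTP by SAR1, were higher in columnar/hypertrophic cartilage. *Sec23b* had signals of 4245 in columnar/hypertrophic and 2932 in round cartilage (0.53). *Sec23a*, the BBF2H7 target, had 8349.9 and 6653 (0.33), about the size of the spread between probe sets. In the outer cage, *Sec13* had 7649 in columnar/hypertrophic and 5406 in round cartilage (0.50), whereas its partner *Sec31a* had 4663 and 4254 (0.13). *Sec23b* and *Sec13* kept differences of 0.43 to 0.57 and 0.35 to 0.54 in the 9 alternative settings. Each was measured by a single probe set, so only median centring, quantile normalization and lowess centring could change these values.

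The 4 SEC24 paralogs, which select cargo for the coat, differed little, with a median of 0.06. *Sec24a* had signals of 4176 in columnar/hypertrophic cartilage and 3783 in round cartilage (0.14), although its other probe set had a difference of -0.18. *Sec24d* had 5262 and 4845 (0.12), and *Sec24c* had 2795 and 2785 (0.01). *Sec24b* went the other way on both of its probe sets, with 784 in columnar/hypertrophic and 939.8 in round cartilage on the brighter one (-0.26) and 201 and 319 on the other (-0.67). The paralogs of the GTPase that starts coat assembly also stayed within the spread between probe sets. *Sar1b* had 3980.3 in columnar/hypertrophic and 3502 in round cartilage (0.18), and *Sar1a* had 9929 and 11068 (-0.16), with an opposite difference of 0.29 on its other probe set.

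Among the organisers of ER exit sites, *Sec16b* stood apart. SEC16 proteins are scaffolds on which the COPII coat assembles, and mammals have a long form, encoded by *Sec16a*, and a short form, encoded by *Sec16b*. *Sec16b* had a signal of 797 in columnar/hypertrophic cartilage and 1953 in round cartilage, a difference of -1.29, or 2.45-fold higher in round cartilage. This was the lowest difference among the 42 genes, and it rested on 1 probe set. It stayed between -1.29 and -1.26 in the 9 alternative settings, of which only median centring, quantile normalization and lowess centring could change it. *Sec16a* had 4620.0 in columnar/hypertrophic cartilage and 4920.4 in round cartilage (-0.09), and its other probe set gave -0.01. The pair thus differed in the size of its zonal difference by more than the spread between probe sets. *Sec16b* shared this direction with most fibroblast markers, such as *Col3a1* at 5232 in columnar/hypertrophic and 30420.3 in round cartilage, but not with *Lum* (0.05). Of 5 measured round or articular markers 4 were also at least 2-fold higher in round cartilage, such as *Ucma* at 6943 and 23261. The part of either kind of cell in the *Sec16b* difference was not tested.

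The other organisers differed less. *Mia3* encodes TANGO1, which packs procollagen into large COPII carriers, and had signals of 4039 in columnar/hypertrophic and 3837 in round cartilage (0.07). Its 4 probe sets disagreed, from -0.83 to 0.17, and the lowest of them was a bound, since its columnar/hypertrophic signal of 7.06 lay under the floor. *Tfg*, whose product holds COPII carriers near the exit site, had 6505 and 5063 (0.36), against -0.16 on a dimmer probe set. *Preb* encodes SEC12, the exchange factor that loads SAR1 with GTP, and had 2412 in columnar/hypertrophic and 1948 in round cartilage (0.31). All 3 *Preb* probe sets were positive, from 0.18 to 0.68.

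The cargo receptors had the highest class median, 0.30, and 6 of 6 genes were positive as deposited and after quantile or lowess normalization. All 6 had a mean signal above 4096, and 69.0% of all genes that bright were positive as deposited. *Kdelr3* encodes a receptor that returns proteins with a KDEL tail from the Golgi to the ER. Its signal was 13146 in columnar/hypertrophic cartilage and 8491 in round cartilage, a difference of 0.63 (1.55-fold), and 0.47 to 0.67 in the 9 alternative settings. The paralogs *Kdelr2*, with 32519.9 and 26733 (0.28), and *Kdelr1*, with 8198 and 7214 (0.18), leaned the same way by less. The other probe set of *Kdelr2* gave 0.44, and *Kdelr1* and *Kdelr3* each had only 1. Only median centring, quantile normalization and lowess centring could therefore change the *Kdelr3* value.

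LMAN1 and MCFD2 form the receptor that exports coagulation factors and other glycoproteins from the ER. *Lman1* had signals of 11049 in columnar/hypertrophic cartilage and 8832 in round cartilage (0.32), and *Mcfd2* had 5059 and 3938 (0.36). The 3 brightest of the 5 *Lman1* probe sets gave 0.32, 0.46 and 0.71, and the dimmer ones gave -0.12 and 0.01. *Surf4*, which encodes a receptor for soluble secretory proteins, had 6572 in columnar/hypertrophic and 5697 in round cartilage (0.21). All 5 of its probe sets were positive, from 0.12 to 0.63, and so its direction did not hinge on the probe set used. Over the class, 14 of 15 probe sets were positive.

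**Figure D3:**
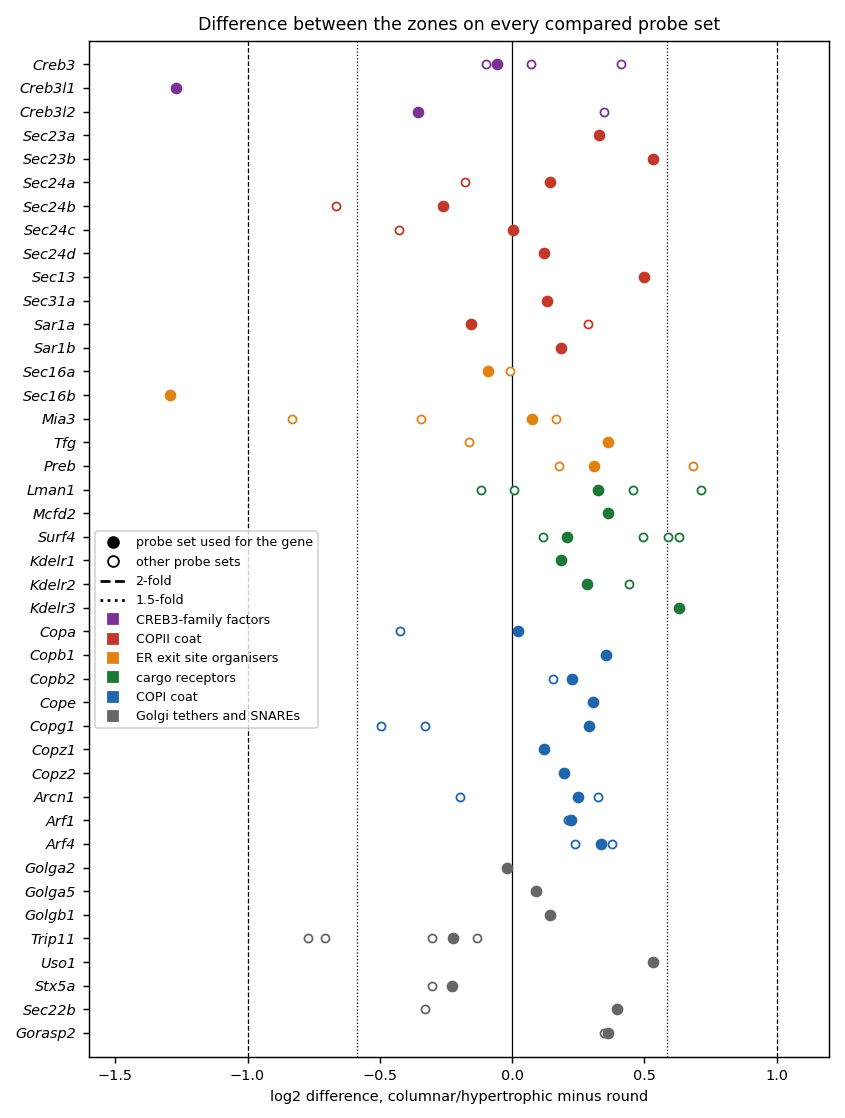
Log2 difference (columnar/hypertrophic minus round) of all 82 compared probe sets of the 42 transport genes, with filled circles for the probe set used for each gene, open circles for the others, dashed lines at 2-fold and dotted lines at 1.5-fold. *Surf4* and *Preb* lie to the right of 0 on all probe sets and *Trip11* to the left on all 5, whereas *Creb3l2*, *Copg1* and *Sec22b* have probe sets on both sides.

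In the COPI coat, 10 of 10 genes were positive as deposited. So were 57.7% of all genes with both signals at least 1000, and 69.0% of those with a mean signal above 4096. The COPI count was 9 after quantile or lowess normalization, where *Copa* became negative (-0.14 after quantile normalization). With the mean or median over probe sets it was 8, with *Copa* and *Copg1* negative. The class median was 0.24, and 0.085 after lowess centring, and the genes ranged from 0.02 to 0.36, with an SD between genes of 0.10. The coat consists of the heptameric coatomer and is recruited to Golgi membranes by ARF GTPases. *Copb1* had signals of 4795 in columnar/hypertrophic and 3745 in round cartilage (0.36), the highest difference of the coat. *Cope* had 9507 and 7692 (0.31), *Copg1* had 6002 and 4910.2 (0.29), and *Arcn1*, which encodes the delta subunit, had 7844 and 6605 (0.25), with 0.33 and -0.20 on its other probe sets. The direction of *Copg1* depended on the probe set, with -0.33 and -0.50 on its dimmer ones, the last a bound, and a mean over all of -0.18.

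The remaining coatomer genes differed by less. *Copb2* had signals of 11199.9 in columnar/hypertrophic cartilage and 9572 in round cartilage (0.23), *Copz2* had 5657 and 4939 (0.20), and *Copz1* had 3817 and 3512 (0.12). *Copa*, which encodes the largest subunit, had 11265 and 11079 (0.02), with -0.42 on its other probe set. The GTPase genes *Arf4*, with 11598 and 9176 (0.34), and *Arf1*, with 25818 and 22132 (0.22), were positive on all their compared probe sets, 3 and 2 in number. None of the COPI genes reached 1.5-fold, and most stayed within 0.34, the spread between probe sets.

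Set side by side, the COPII coat had a median difference of 0.14 and the COPI coat one of 0.24, so that COPII minus COPI was -0.10. The gap lay between -0.15 and -0.07 in 13 alternative settings. Median centring and the floor settings could not change it, and leaving out the GTPases left both medians as they were. The gap is smaller than 0.14, the change that the spread between probe sets allows in the median of a class of 10. On the probe sets used for the genes, COPII spanned 0.79 and COPI 0.33, and 5 of the 10 COPII genes lay within the COPI range. Over all compared probe sets the ranges were more alike, from -0.67 to 0.53 in COPII and from -0.50 to 0.38 in COPI. The extremes of the COPII coat were *Sec23b* and *Sec13* above that range and *Sec24b* and *Sar1a* below 0. Counted over probe sets, 9 of 14 were positive in COPII and 15 of 19 in COPI. Genes of 1 coat on 2 arrays are not replicates, so no p-value is given.

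The Golgi tethers and SNAREs had a median of 0.12 and were mixed in direction, with 5 genes positive and 3 negative. *Uso1* encodes p115, a tether for vesicles arriving at the cis-Golgi, and had signals of 5651 in columnar/hypertrophic and 3904 in round cartilage (0.53). *Gorasp2*, which encodes a stacking protein of the cisternae, had 7925 and 6167 (0.36), and its other probe set gave 0.35. *Sec22b*, a SNARE of vesicles between ER and Golgi, had 8773 and 6655 (0.40), but -0.33 on its other probe set. The partner SNARE *Stx5a* leaned to round cartilage, with 5092 in columnar/hypertrophic and 5957 in round cartilage (-0.23), and -0.30 on its other probe set.

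The golgins are long coiled-coil tethers, of which 4 belong to this class. *Trip11* encodes GMAP-210, whose loss in humans and mice causes a lethal skeletal dysplasia with swollen chondrocyte ER. It had signals of 2332 in columnar/hypertrophic and 2719 in round cartilage (-0.22), and all 5 of its probe sets were negative, from -0.77 to -0.13. *Golgb1*, encoding giantin, had 2273 and 2055 (0.15), *Golga5*, encoding golgin-84, had 3481 and 3267 (0.09), and *Golga2*, encoding GM130, had 2222 and 2253 (-0.02). Of these, *Trip11* alone had more than 1 compared probe set, and its direction was shared by all of them. Over the Golgi class, 6 of 15 probe sets were positive and their median was -0.13, opposite in sign to the median over genes.

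Over all classes, the 82 compared probe sets had a median of 0.15, with 53 positive and 29 negative, and 5 more lay at the floor in both arrays. Past 2-fold were 0 in the columnar/hypertrophic direction, against 3.82% of all compared probe sets, and 2 in the round direction, against 5.96%. Of the 23 genes with several compared probe sets, 11 had 1 sign throughout and 12 had both signs.

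A smaller lean to columnar/hypertrophic cartilage was shared by bright genes in general. Among all genes, the median difference was -0.13 for mean signals below 256, -0.08 from 256 to 1024, 0.04 from 1024 to 4096 and 0.16 above 4096. The transport genes are bright, with 39 of 42 at 1000 or more in both arrays, and of these 32 were positive, against 57.7% of all genes that bright. In the brightest class, 23 of 27 transport genes were positive with a median of 0.28, against 69.0% of 961 genes. Normalization that removes the relation to signal lowered both values. After quantile normalization the brightest transport genes had a median of 0.12, with 21 positive, and all genes of that class 0.03, with 54.0% positive. After lowess centring these medians were 0.10 and 0.01, with 21 transport genes and 50.7% of all genes positive.

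**Figure D4:**
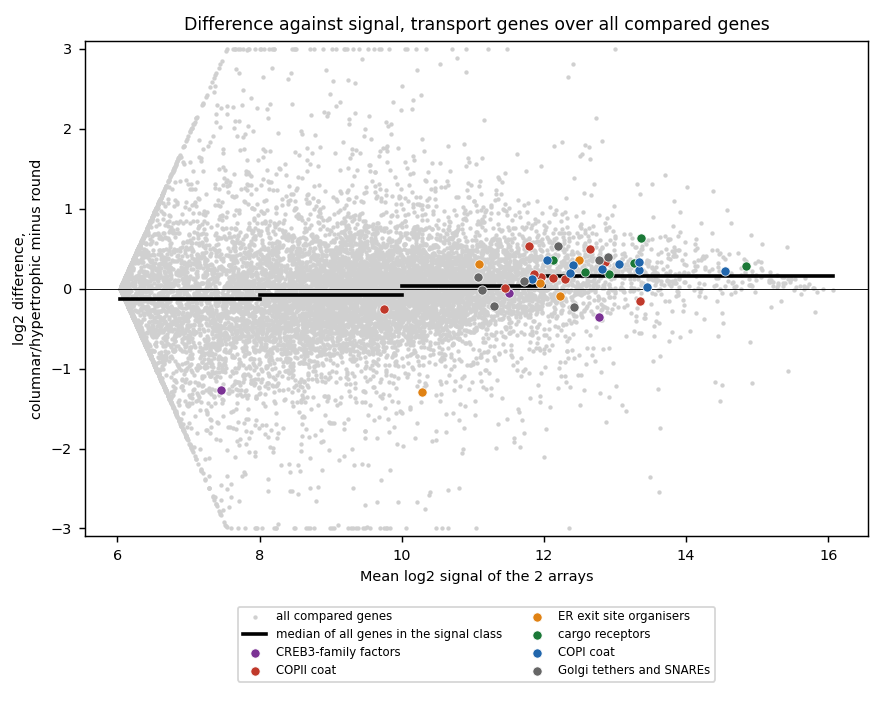
Log2 difference (columnar/hypertrophic minus round) against mean log2 signal for the transport genes (colours by class) over all 12761 compared genes (grey), with black bars at the median of all genes in 4 classes of signal and differences beyond 3 drawn at 3. The black bars go from -0.13 on the left to 0.16 on the right, and most transport genes lie in the right part around and above the last bar.

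The order of the cargo receptors, COPI coat and COPII coat changed less than their level. The Golgi class changed places with the COPII coat. Its median was 0.12 as deposited, against 0.14 for COPII. After quantile normalization the 2 medians were 0.07 and 0.03, and after lowess centring 0.05 and 0.02. In the main setting and all 9 alternatives, the cargo receptors had a higher median than the COPI coat and the COPI coat a higher one than the COPII coat. Median centring and the floor settings could not change this order. As deposited, the COPII median of 0.14 lay below that of all genes with a mean signal above 4096, and the receptor and COPI medians lay above it. The COPII median lay above it after lowess centring and in the settings that averaged or restricted the probe sets.

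**Figure D5:**
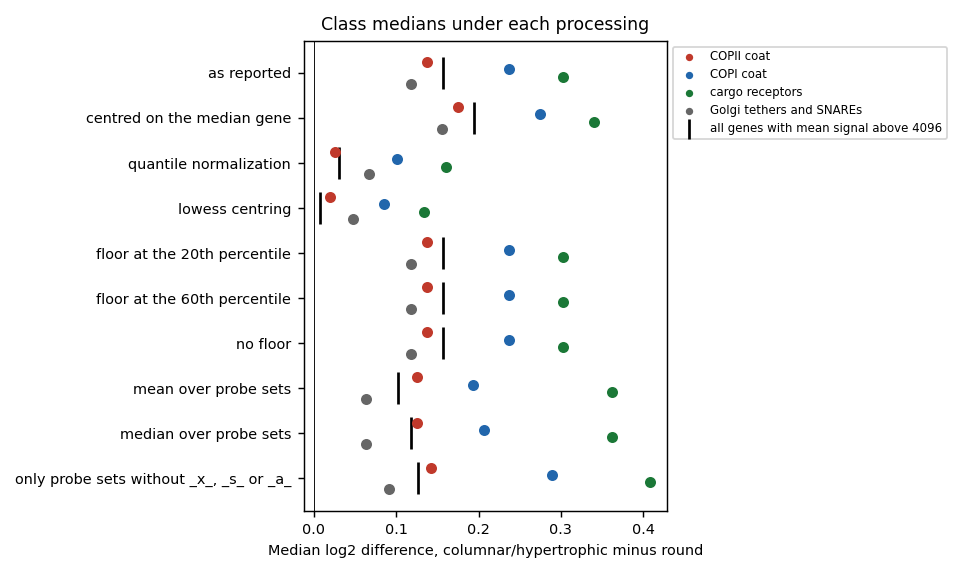
Median log2 difference (columnar/hypertrophic minus round) of 4 classes of transport genes as reported and under 9 alternative settings, with a vertical mark for the median of all genes with a mean signal above 4096. The points of all classes move to the left under quantile normalization and lowess centring, and the order of receptors, COPI and COPII is kept in each setting. Median centring and the floor settings could not change that order.

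Holding the promoter match beside the signals, the 8 genes with TGACGTGG had a median difference of 0.22, with 6 positive, and the 29 genes with a window but no match had 0.18, with 22 positive. With TGACGT, the 18 genes that hold it had a median of 0.12, with 13 positive, and the 19 without had 0.21, with 15 positive. Among all genes with a value, those with TGACGTGG had a median of 0.04 and 54.6% were positive. The 8 genes include both the highest difference of the 42, that of *Kdelr3*, and the lowest, that of *Sec16b*. The wild-type state of these genes was not analysed here.

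A further 80 genes of the same route, listed by function, were read in the same way, of which 76 were compared. Their median was 0.13, with 45 positive and 31 negative, and 2 passed 2-fold in the columnar/hypertrophic direction and 0 in the round direction. Over all genes, 46.8% were positive and 4.28% and 6.25% passed 2-fold in these directions. One was *Arfgef2*, which encodes BIG2, an exchange factor that activates ARF GTPases at the late Golgi. It had signals of 1198 in columnar/hypertrophic and 519 in round cartilage (1.21), and both compared probe sets passed 2-fold (1.21 and 1.44). The other was *Creb3l3*, a CREB3-family gene known from liver, with 142 in columnar/hypertrophic cartilage and a signal of 17.6 under the floor in round cartilage, at least 2.16-fold higher on a dim probe set. The exchange factors *Arfgef1*, with 2870.4 and 2087 (0.46, and 0.05 on its other probe set), and *Gbf1*, with 1485 and 1232 (0.27, and -0.20 on its lowest probe set), differed less. The 9 ARF genes and regulators had a median of 0.11.

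Cargo adaptors of the p24 and ERGIC families had a median of 0.22 over 14 genes, which was 0.055 when probe sets were averaged. *Tmed9*, a p24 protein, had 10313 in columnar/hypertrophic and 6254 in round cartilage (0.72), but 0.20 on its other probe set. *Bcap29*, encoding an ER sorting protein, had 694 and 469 (0.57). In the opposite direction, *Tmed4* had 1479 and 2053 (-0.47). Among 13 further SNAREs and fusion factors, whose median was 0.04, *Nsf* encodes the ATPase that takes SNARE complexes apart and had 2032 and 1165 (0.80), with probe sets from -0.15 to 1.01. *Ykt6* had 5237 in columnar/hypertrophic and 3234 in round cartilage (0.70), with 0.38 on its other probe set, and *Sec22c* had 207 and 289 (-0.48).

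Differences among the remaining tethers and regulators went both ways. The 18 TRAPP and Rab genes, which prepare Golgi membranes for vesicle docking, had a median of 0.14. *Trappc1* had 1961 in columnar/hypertrophic and 1496 in round cartilage (0.39). *Trappc13* had 591 and 841 (-0.51, with probe sets from -0.57 to -0.06), and *Trappc9* had 207 and 300.1 (-0.53). The COG complex and other golgins, 15 genes in all, had a median of -0.06. Within the COG complex, which tethers retrograde vesicles inside the Golgi, *Cog6* had 2884 in columnar/hypertrophic and 1873 in round cartilage (0.62), *Cog7* had 244 and 193 (0.34), and *Cog5* had 111 and 193 (-0.79). The subunits of this complex therefore did not share a direction. In the list for procollagen export and CREB3 processing, whose 7 compared genes had a median of -0.08, *Creb3l4* had 117 and 218 (-0.89), *Klhl12*, which encodes a ubiquitin ligase adaptor for SEC31, had 569 and 477 (0.25), and *Pef1*, its calcium-binding cofactor, had 893 and 1001 (-0.16).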

How the data were processed

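The authors deposited probe set intensities on a linear scale for 45037 probe sets of each array. MAS5 is the tool given in the submitters' processing notes. The methods of the study name robust multiarray analysis for its heatmaps, which were not used here. Trimmed mean signals were 496 for columnar/hypertrophic and 497 for round cartilage, so no further scaling was applied. Of the probe sets, 34945 had 1 gene symbol, 932 had several and were left unnamed, and 9160 had none here. RefSeq held 34741 of the singly annotated ones and changed 0 symbols. In all, 26448 and 27596 probe sets lay above the floor (65.9).

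With 1 array per zone, genes were described by signals, log2 differences and counts past 2-fold and 1.5-fold, and no test was made. All 42 genes were named. Of the other transport lists, up to 3 genes per list with the widest difference above the floor in both arrays were named, together with genes past 2-fold and, chosen after their values were seen, *Mbtps1* and *Mbtps2*. The genes, lists and cell type markers were chosen with earlier results of these data known. *Mia2* and *Tmed2* lay at the floor in both arrays, and *Sec31b* and *Tmed1* were not compared. Protein sequences of the paralogs were not analysed here. Alternatives were median centring, quantile normalization, lowess centring (span 0.3), floors at the 20th and 60th percentiles or none, the mean or median over probe sets, and probe sets without a cross-hybridization suffix. The steps were tested on simulated data. Calculations ran in Python 3.11.15 with pandas 2.3.3 and numpy 2.4.6, lowess came from statsmodels 0.14.6, and plots were drawn with matplotlib 3.10.9.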

Additional observations from a re-analysis of the deposited data

How the results depend on the processing

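With 1 array per zone no replicate could be left out, and detection rests on signal over background, which matters for *Creb3l1* and not for the 39 transport genes at 1000 or more in both arrays. No paired analysis was possible because there was 1 array per zone. A value was taken to have moved where it changed by more than the spread between probe sets allows (0.34 for a gene, 0.066 for the median of all 42 genes, 0.14 for a class of 10), and a count where it changed by over 1.5 times. By this measure 363 of 371 values of single genes, 115 of 126 medians, 67 of 72 counts and all 13 values of the difference between the coats stayed the same. The gap between the coats, -0.10, is smaller than the 0.14 for a class of 10, so its staying the same does not establish a gap. Median centring and the floor settings could not change that gap. For a bright gene with 1 probe set free of a suffix, only median centring, quantile normalization and lowess centring could change the value.

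Quantile normalization and lowess centring lowered the median of all 42 genes to 0.063 and 0.061, lowess centring lowered the COPI median to 0.085, and under both 0 genes remained past 1.5-fold in columnar/hypertrophic cartilage. With the floor at the 60th percentile, 1 gene was at least 2-fold and 1 at least 1.5-fold higher in round cartilage. The columnar/hypertrophic signal of *Creb3l1* lay under that floor, so its difference there was a bound. Taking the mean over probe sets gave medians of -0.0050 for the CREB3 family, 0.055 for the further transport genes, 0.055 for the p24 and ERGIC adaptors and -0.087 for the further SNAREs. Taking the median over probe sets gave -0.0050, 0.065 and 0.055 for the first 3 of these. With probe sets free of a cross-hybridization suffix alone, the further SNAREs had a median of -0.18 and 2 genes passed 1.5-fold in columnar/hypertrophic cartilage, of which *Preb* (0.68) was one. *Sec22b* was 0.04 as the mean of its probe sets, and *Copg1* was -0.33 as their median. Averages moved where probe sets of a gene differed, as for *Creb3l2* (-0.36 and 0.35). Without suffixed probe sets, *Preb* was read from its dimmest one. Why probe sets of a gene differed, and why the difference rose with signal, was not tested.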
